A study of Homo sapiens with 19 samples.

Results

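The 35 genes described here encode the steps that take glucose from the medium to lactate or into the mitochondrion: glucose and lactate transporters, the glycolytic enzymes in their isozyme forms, the kinases and subunits of the pyruvate dehydrogenase complex, and 4 enzymes of glycogen and glucose 1-phosphate metabolism. They were taken by name from the 62700 genes in the count files, and all 35 were found there and passed the filter on low counts in both models used below. The cells were A549, an established human lung adenocarcinoma line, and every group below is that line with no other agent given. Nanostraw electroporation (NEE) uses hollow nanoscale tubes and short electric pulses to draw material out of living cells. The groups were RNA sampled by NEE from monolayers (3 libraries, which the labels call technical replicates), lysates of spheroids taken before NEE, right after NEE, 2 h after NEE and 24 h after NEE (2 biological replicates each), and lysates of monolayers at the same 4 times (2 biological replicates each). The p-values for NEE-sampled RNA therefore rest on technical spread in 3 of the 11 libraries compared. In bulk lysates, fewer cells expressing a gene and less RNA of it per cell cannot be told apart.

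Glycolysis splits glucose into pyruvate in the cytosol. Hexokinase and phosphofructokinase carry out its committed, regulated steps, and the bifunctional PFKFB enzymes set the level of fructose 2,6-bisphosphate, the strongest activator of phosphofructokinase. Pyruvate is either reduced to lactate by lactate dehydrogenase and exported by monocarboxylate transporters, or oxidised to acetyl-CoA by the pyruvate dehydrogenase complex, which the PDK kinases switch off. Many of these genes are known targets of the hypoxia-inducible factors, and different isozymes of the same step are known to respond differently.

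The lysate libraries held 16031034 to 24571083 counts each and the NEE-sampled libraries 13626934 to 18512985, so that 3 counts corresponded to 0.122 to 0.22 CPM (counts per 1000000, scaled by trimmed mean of M-values, TMM). The 35 genes together took 4.04% to 5.23% of the counts in NEE-sampled RNA, 4.22% to 5.90% in spheroids and 2.54% to 3.94% in monolayers. The 9 A549 and epithelial markers summed to 32992 to 40273 CPM in NEE-sampled RNA, 33182 to 54955 CPM in spheroids and 30751 to 45724 CPM in 7 of the 8 monolayer libraries. Replicate 1 of the monolayers before NEE stood apart: its A549 markers summed to 14664 CPM, and its 14 NK and T cell markers, all detected, summed to 708 CPM, against 27.0 to 38.6 CPM in the other 7 monolayer libraries. The same 14 markers summed to 1.65 to 5.61 CPM in NEE-sampled RNA, where CD3E, KLRD1, CD52 and CD53 were at 0, and to 22.3 to 64.2 CPM in spheroids. That library also had 1645 CPM of GAPDH and 1062 CPM of TPI1, against at least 3353 and 2012 CPM in the other 7, and results that rest on it are given with and without it. Outside that library the fibroblast and endothelial markers were low, with sums of at most 13.1 and 4.31 CPM. The red cell markers summed to at most 1.45 CPM in any library.

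**Figure D1:**
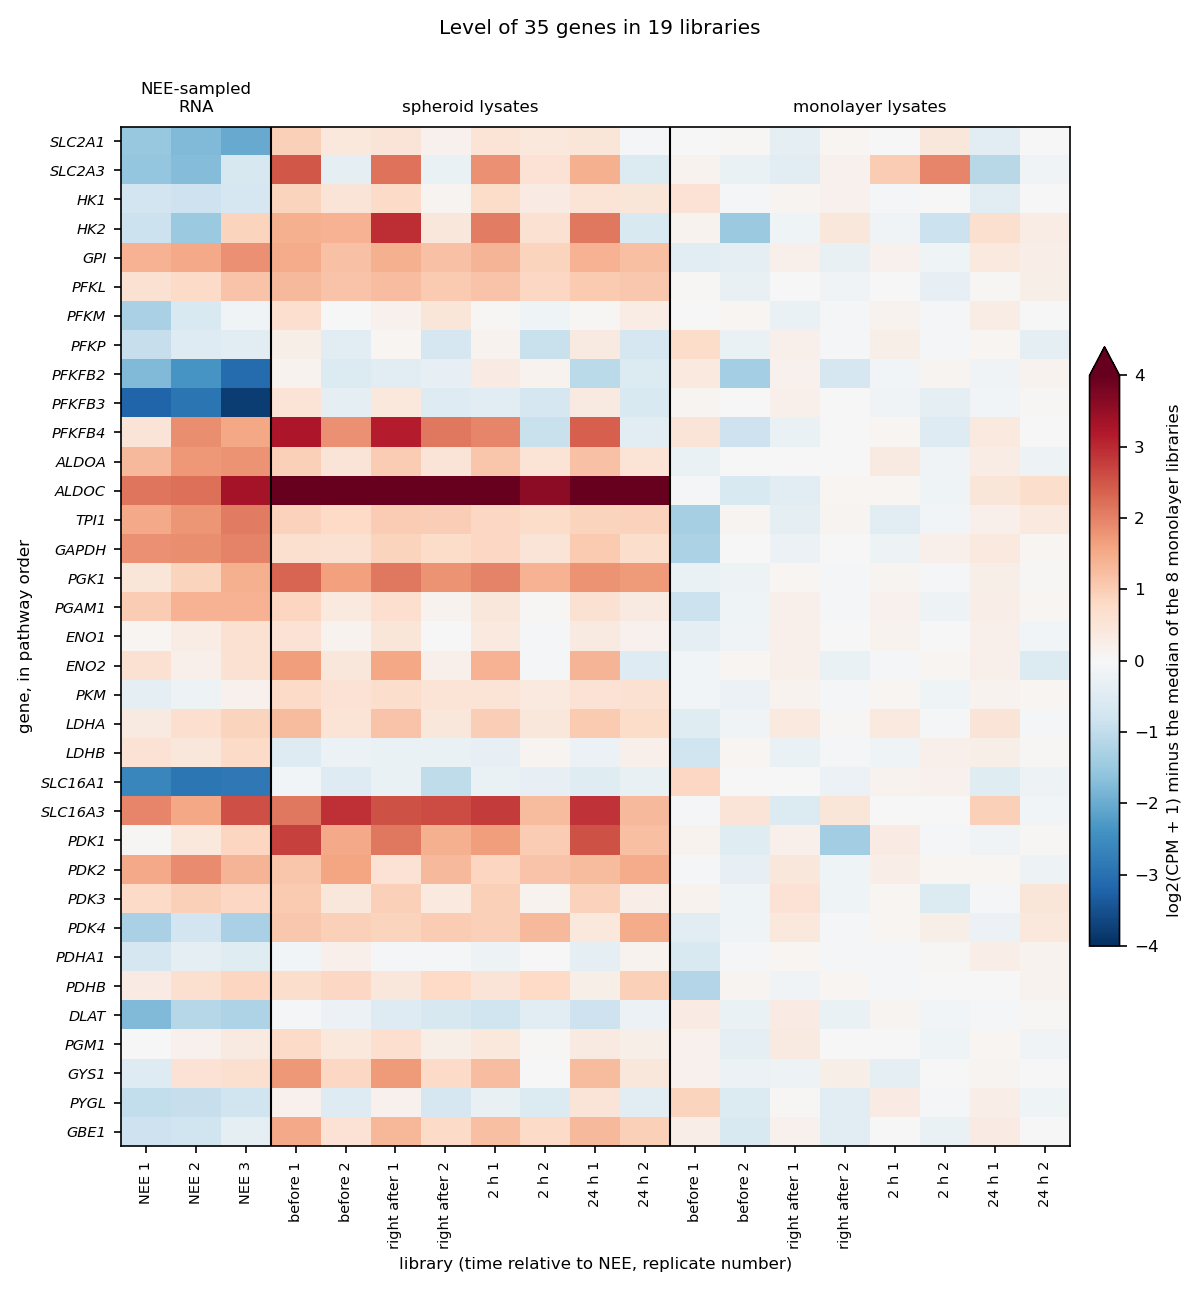
Levels of the 35 genes in all 19 libraries, as log2(CPM + 1) minus the median of the 8 monolayer libraries (color scale, capped at 4), with genes in pathway order down the page and libraries across. ALDOC is the gene furthest above the monolayers in the spheroid columns, PFKFB3 and SLC16A1 stand lowest in the NEE-sampled columns, and TPI1, GAPDH and PDHB are low in replicate 1 of the monolayers before NEE.

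Spheroids had more RNA of most of the pathway than monolayers. Over the 4 times, 23 of the 35 genes were higher in spheroids (10.0% of the 17822 genes tested were higher) and 1, DLAT, was lower (9.84% were lower), so that 24 of the 35 differed, against 19.9% of all genes. The median log2 fold change was 0.77 for the 35 genes and -0.02 over all genes tested, and 27 of the 35 changes were positive, against 48.6% over all genes. In 13 genes every one of the 8 spheroid libraries lay above every one of the 8 monolayer libraries (3.00% of all genes did so): GPI, PFKL, ALDOA, ALDOC, TPI1, GAPDH, PGK1, PKM, SLC16A3, PDK1, PDK2, PDHB and GBE1. No member lay wholly below (3.34% of all genes did). Without replicate 1 of the monolayers before NEE, 23 genes were again higher, none was lower and 13 again did not overlap. The replicate number is the labels' batch: within the libraries numbered 1, 23 genes were higher and 1 lower, and within those numbered 2, 17 were higher and 4 lower. Both fits hold 1 library per culture and time, with the times as repeats. Over all genes, 1621 of 18649 tested were higher and 1418 lower within number 1. Within number 2, 1643 of 18162 were higher and 1829 lower. The fit over the 4 times treated the 8 libraries of each culture as independent, although the same 2 replicate numbers recur at each time. Its p-values therefore do not fully measure spread between batches. With library totals as the scaling, 1472 of all genes tested were higher and 2264 lower, in place of 1788 and 1754, and 20 of the 35 genes were higher and 2 lower.

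SLC2A1 and SLC2A3, the glucose transporters, sit at the plasma membrane. SLC2A1 (GLUT1), the common basal transporter, ranged over 396 to 781 CPM (median 555) in the spheroid libraries, against 295 to 554 CPM (median 406) in the monolayer libraries. The groups overlapped, and the difference passed the test (log2 fold change 0.47 ± 0.14 SE, edgeR adjusted p = 0.0258). SLC2A3 (GLUT3), a high-affinity transporter, ranged over 30.2 to 257 CPM (median 94.1) in spheroids, against 20.1 to 175 CPM (median 45.0) in monolayers. Its ranges overlapped widely and the difference did not pass (log2 fold change 1.11 ± 0.48 SE, edgeR adjusted p = 0.135). Per kilobase of exon, SLC2A1 was the major form, with a median of 88.6% of the pair in spheroids and 92.2% in monolayers.

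Glucose is trapped in the cell by hexokinase. HK1, the constitutive form, was higher in spheroids at 206 to 352 CPM (median 274), against 137 to 283 CPM (median 190.0) in monolayers (log2 fold change 0.52 ± 0.14 SE, edgeR adjusted p = 0.0191). HK2, the inducible form, was much lower, at 0.814 to 20.6 CPM (median 6.33) in spheroids, against 0 to 3.29 CPM (median 1.79) in monolayers, and the difference passed narrowly (log2 fold change 2.22 ± 0.71 SE, edgeR adjusted p = 0.0438). It was at 0 in 1 of the 3 NEE-sampled and 1 of the 8 monolayer libraries. HK1 was at least 93.8% of the pair per length in every lysate library. GPI, which turns glucose 6-phosphate into fructose 6-phosphate, ranged over 1857 to 2779 CPM (median 2434) in spheroids, against 738 to 1308 CPM (median 1005) in monolayers, with no overlap (log2 fold change 1.30 ± 0.12 SE, edgeR adjusted p = 1.3e-05), a 2.46-fold difference.

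Phosphofructokinase-1 commits the sugar to glycolysis and exists as 3 isozymes, of which only PFKL passed the test. PFKL, the liver-type form, ranged over 244 to 336 CPM (median 298) in spheroids, against 109 to 161 CPM (median 137) in monolayers, again without overlap (log2 fold change 1.16 ± 0.11 SE, edgeR adjusted p = 1.42e-05). PFKM, the muscle-type form, ranged over 84.6 to 152 CPM (median 103) in spheroids, against 78.3 to 118 CPM (median 94.7) in monolayers (log2 fold change 0.20 ± 0.13 SE, edgeR adjusted p = 0.305). PFKP, the platelet-type form, ranged over 325 to 782 CPM (median 554) in spheroids, against 461 to 1017 CPM (median 609.8) in monolayers (log2 fold change -0.24 ± 0.22 SE, edgeR adjusted p = 0.502). Both overlapped between the cultures, and PFKM shares its locus with SENP1 on the opposite strand, whose counts were 23.8% of its own. PFKP remained the major form per length, at 61.1% to 78.3% (median 69.3%) of the 3 in spheroids and 75.5% to 87.9% (median 82.6%) in monolayers, while PFKL took 15.3% to 25.8% (median 21.9%) in spheroids and 6.61% to 14.3% (median 9.24%) in monolayers. Of the PFKFB enzymes, PFKFB4 was higher in spheroids, at 6.20 to 125 CPM (median 53.8), against 6.59 to 18.2 CPM (median 12.3) in monolayers (log2 fold change 2.16 ± 0.51 SE, edgeR adjusted p = 0.0116). The spheroid libraries of PFKFB4 spread widely, and the lowest of them was below every monolayer library. PFKFB3, the form known for its high kinase activity, ranged over 459.8 to 1090.2 CPM (median 559) in spheroids, against 577 to 853 CPM (median 739) in monolayers (log2 fold change -0.07 ± 0.18 SE, edgeR adjusted p = 0.862). PFKFB3 was the major form per length, at 88.2% to 96.2% (median 89.9%) of the 3 in spheroids and 95.5% to 98.4% (median 96.2%) in monolayers. PFKFB2, the heart-type form, ranged over 11.2 to 31.1 CPM (median 18.6) in spheroids, against 9.10 to 32.7 CPM (median 24.9) in monolayers (log2 fold change -0.18 ± 0.25 SE, edgeR adjusted p = 0.673), and it shares its locus with YOD1 on the opposite strand, whose counts were 52.1% of its own.

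Aldolase cleaves fructose 1,6-bisphosphate, and ALDOC gave the largest fitted change of the 35 genes. ALDOC, the form known from brain, ranged over 155 to 340.3 CPM (median 236) in spheroids, against 7.63 to 20.2 CPM (median 12.1) in monolayers (log2 fold change 4.32 ± 0.18 SE, edgeR adjusted p = 1.69e-08), a 20-fold difference. Its groups were far from overlapping. ALDOA, the form known from muscle, ranged over 11.5 to 19.0 CPM (median 13.8) in spheroids, against 6.32 to 10.4 CPM (median 7.79) in monolayers (log2 fold change 0.88 ± 0.21 SE, edgeR adjusted p = 0.00934). ALDOA is uncertain as counted, because another annotated gene, ENSG00000285043, overlaps it on the same strand and had counts equal to 16.8% of those of ALDOA, and how reads in both were counted is not given in the sources used here. Per kilobase of exon, ALDOA had a median of 3.54 CPM in spheroids, against 228 for GPI and 1872 for TPI1. The share and the ratio of ALDOC to ALDOA carry the same uncertainty, so which aldolase was the major form cannot be told from them. Of the pair per length, ALDOC was 94.2% to 97.1% (median 96.0%) in spheroids and 56.7% to 80.4% (median 67.9%) in monolayers.

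From triose phosphate to pyruvate, TPI1, GAPDH, PGK1, PGAM1 and PKM were higher in spheroids and the enolases did not pass. TPI1, which interconverts the triose phosphates, ranged over 4452 to 5456 CPM (median 5054) in spheroids, against 1062 to 3518 CPM (median 2688) in monolayers (log2 fold change 1.03 ± 0.17 SE, edgeR adjusted p = 0.000887). GAPDH, which forms the first high-energy phosphate of the pathway and is widely used as a reference transcript, ranged over 5707 to 8129 CPM (median 6539) in spheroids, against 1645 to 5265 CPM (median 3974) in monolayers (log2 fold change 0.84 ± 0.16 SE, edgeR adjusted p = 0.00257). Neither overlapped between the cultures, and the lowest monolayer value of each came from the library that stood apart. Without it the log2 fold changes were 0.89 ± 0.10 SE, edgeR adjusted p = 6.82e-05, for TPI1, and 0.72 ± 0.11 SE, edgeR adjusted p = 0.000557, for GAPDH. PGK1, the first ATP-yielding step, ranged over 4327 to 8353 CPM (median 5797) in spheroids, against 1372 to 1950.1 CPM (median 1661) in monolayers (log2 fold change 1.88 ± 0.13 SE, edgeR adjusted p = 2.46e-06), without overlap. PGAM1, the mutase that follows, ranged over 769 to 1361 CPM (median 1010.0) in spheroids, against 414 to 892 CPM (median 751) in monolayers (log2 fold change 0.53 ± 0.14 SE, edgeR adjusted p = 0.0173), and 0.45 ± 0.13 SE, edgeR adjusted p = 0.0283, without that library. The ranges of PGAM1 overlapped. ENO1, the common enolase, ranged over 4585 to 7063 CPM (median 5661) in spheroids, against 3584 to 5433 CPM (median 4689.6) in monolayers (log2 fold change 0.29 ± 0.12 SE, edgeR adjusted p = 0.0998). ENO2, the neuronal form, ranged over 60.7 to 282 CPM (median 173) in spheroids, against 59.5 to 101 CPM (median 88.2) in monolayers (log2 fold change 0.99 ± 0.33 SE, edgeR adjusted p = 0.0503). With the replicate number as a block both passed, ENO1 at 0.28 ± 0.09 SE, edgeR adjusted p = 0.0488, and ENO2 at 0.81 ± 0.23 SE, edgeR adjusted p = 0.0212. PKM, the last step to pyruvate, ranged over 8816 to 11471 CPM (median 10091) in spheroids, against 5774 to 7504 CPM (median 6761) in monolayers, without overlap (log2 fold change 0.61 ± 0.09 SE, edgeR adjusted p = 0.000338). ENO2 is uncertain as counted, since LRRC23 overlaps it on the same strand with counts equal to 15.8% of its own. GAPDH, TPI1, PGAM1, PKM, ENO1 and LDHA have named pseudogenes, 65 for GAPDH, whose own counts came to at most 0.893% of the parent gene's, and reads shared between the copies make these genes less certain.

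**Figure D2:**
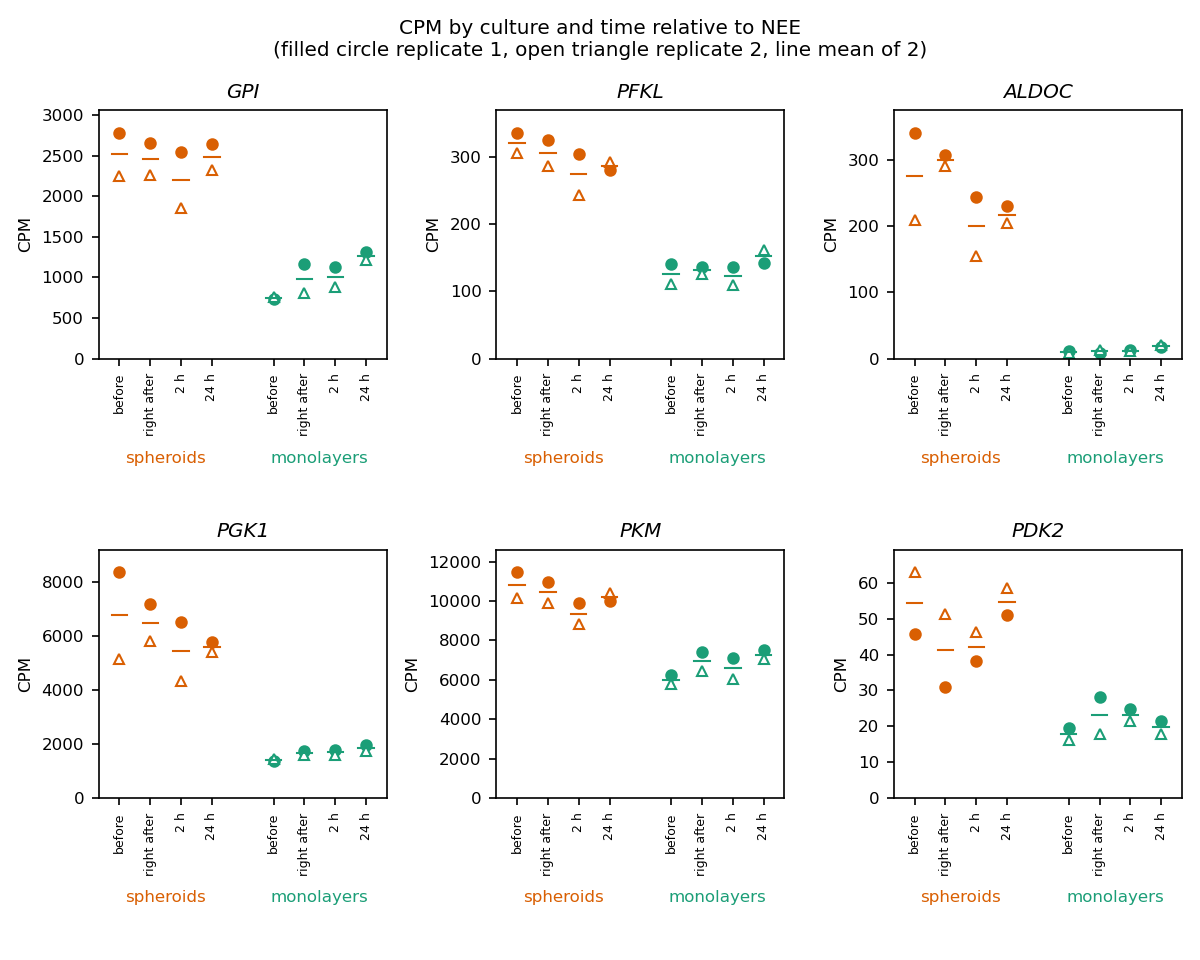
CPM (vertical axes, from 0) of GPI, PFKL, ALDOC, PGK1, PKM and PDK2 by time relative to NEE, spheroids on the left and monolayers on the right of each panel, with filled circles for replicate 1, open triangles for replicate 2 and lines for the mean of 2. In each panel all 8 spheroid points lie above all 8 monolayer points.

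At the fork of pyruvate, the lactate side was higher in spheroids for 2 of 4 genes. LDHA, the subunit that favours lactate formation, ranged over 6771 to 11923 CPM (median 9048) in spheroids, against 3548 to 7187 CPM (median 4981) in monolayers (log2 fold change 0.76 ± 0.16 SE, edgeR adjusted p = 0.00464), with some overlap. LDHB, the subunit that favours the reverse reaction, ranged over 46.0 to 75.9 CPM (median 55.1) in spheroids, against 37.6 to 78.1 CPM (median 65.7) in monolayers, and did not pass (log2 fold change -0.11 ± 0.15 SE, edgeR adjusted p = 0.692). SLC16A3 (MCT4), known as the exporter of lactate in highly glycolytic cells, ranged over 50.7 to 161 CPM (median 127) in spheroids, against 13.5 to 40.1 CPM (median 20.4) in monolayers (log2 fold change 2.27 ± 0.31 SE, edgeR adjusted p = 0.0003). SLC16A3 shares its locus with CSNK1D on the opposite strand, whose counts were 154% of its own, and the strand setting of the counting is not given in the sources used here. SLC16A1 (MCT1), which carries lactate in either direction, ranged over 90.4 to 171 CPM (median 146) in spheroids, against 130.4 to 328 CPM (median 183) in monolayers (log2 fold change -0.44 ± 0.15 SE, edgeR adjusted p = 0.0552). With the replicate number as a block SLC16A1 passed as lower (-0.44 ± 0.13 SE, edgeR adjusted p = 0.0317). Its highest value came from the library that stood apart, and without it the log2 fold change was -0.31 ± 0.13 SE, edgeR adjusted p = 0.132. Per length SLC16A3 was 17.1% to 45.6% (median 34.3%) of the 2 transporters in spheroids and 3.36% to 15.4% (median 6.10%) in monolayers.

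All 4 PDK kinases, which phosphorylate and switch off the pyruvate dehydrogenase complex, were higher in spheroids. PDK1 ranged over 22.8 to 78.0 CPM (median 34.9) in spheroids, against 3.51 to 13.9 CPM (median 10.9) in monolayers (log2 fold change 2.08 ± 0.31 SE, edgeR adjusted p = 0.000495). PDK2 ranged over 31.0 to 63.0 CPM (median 48.6) in spheroids, against 16.2 to 28.2 CPM (median 20.5) in monolayers (log2 fold change 1.20 ± 0.16 SE, edgeR adjusted p = 0.000236). PDK1 and PDK2 did not overlap between the cultures. PDK4, known as the form that rises in fasting, ranged over 256 to 527 CPM (median 378) in spheroids, against 139 to 256 CPM (median 189.6) in monolayers (log2 fold change 1.00 ± 0.16 SE, edgeR adjusted p = 0.000627). The lowest spheroid library of PDK4 fell just short of the highest monolayer library. PDK3 ranged over 46.7 to 88.2 CPM (median 69.3) in spheroids, against 28.4 to 63.0 CPM (median 42.1) in monolayers (log2 fold change 0.63 ± 0.20 SE, edgeR adjusted p = 0.0413), and PDK3 was one of 9 calls lost under at least 1 alternative. PDK4 was the major kinase per length in both cultures, at 65.2% to 84.2% (median 76.0%) in spheroids and 69.1% to 82.6% (median 76.3%) in monolayers.

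The subunits of the complex itself did not move together. PDHB, the beta subunit of its first enzyme, ranged over 164 to 271 CPM (median 233) in spheroids, against 61.1 to 154 CPM (median 139) in monolayers (log2 fold change 0.77 ± 0.17 SE, edgeR adjusted p = 0.00631). PDHA1, the alpha subunit of the same enzyme, ranged over 270.2 to 399.5 CPM (median 327) in spheroids, against 228 to 411 CPM (median 345) in monolayers (log2 fold change -0.02 ± 0.11 SE, edgeR adjusted p = 0.984). PDHB did not overlap between the cultures and PDHA1 did. The lowest monolayer value of PDHB, 61.1 CPM, came from the library that stood apart, against 125 to 154 CPM in the other 7, and without it PDHB was higher by 0.64 ± 0.12 SE, edgeR adjusted p = 0.00305. DLAT, the acetyltransferase at the core of the complex, ranged over 67.9 to 117 CPM (median 88.1) in spheroids, against 101 to 153 CPM (median 122) in monolayers (log2 fold change -0.48 ± 0.14 SE, edgeR adjusted p = 0.0264). Without replicate 1 of the monolayers before NEE, DLAT no longer passed (-0.40 ± 0.13 SE, edgeR adjusted p = 0.058).

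On the glycogen branch, PGM1, GYS1 and GBE1 were higher in spheroids and PYGL did not pass. PGM1, which interconverts glucose 1-phosphate and glucose 6-phosphate, ranged over 159 to 259 CPM (median 201) in spheroids, against 119 to 198 CPM (median 153) in monolayers (log2 fold change 0.41 ± 0.13 SE, edgeR adjusted p = 0.0359). GYS1, glycogen synthase, ranged over 90.3 to 307 CPM (median 192) in spheroids, against 69.5 to 108 CPM (median 92.0) in monolayers (log2 fold change 1.12 ± 0.23 SE, edgeR adjusted p = 0.00344). GBE1, the branching enzyme, ranged over 188 to 357 CPM (median 266) in spheroids, against 80.6 to 156 CPM (median 124) in monolayers, without overlap (log2 fold change 1.14 ± 0.18 SE, edgeR adjusted p = 0.000855). PYGL, the phosphorylase that breaks glycogen down, ranged over 65.5 to 148 CPM (median 80.6) in spheroids, against 70.2 to 193 CPM (median 104) in monolayers (log2 fold change -0.25 ± 0.23 SE, edgeR adjusted p = 0.5).

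By median CPM per kilobase of exon, GAPDH and then TPI1 were highest in the cultures and in NEE-sampled RNA. GAPDH had a median of 4879 CPM per kb in NEE-sampled RNA, 2193 in spheroids and 1333 in monolayers. For TPI1 these were 3409, 1872 and 996. The ranges of LDHA, 1090 to 1920 in spheroids and 571 to 1157 in monolayers, overlapped those of TPI1. In the monolayer library that stood apart, GAPDH and TPI1 were at 552 and 393, below LDHA at 571 and ENO1 at 679. In spheroids LDHA, PKM, ENO1 and PGK1 followed, at 1457, 1177, 1073 and 1052, with ranges that overlapped between neighbours. In monolayers ENO1, LDHA and PKM followed at 889, 802 and 789, also overlapping, and PGK1 stood lower at 301.

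**Figure D3:**
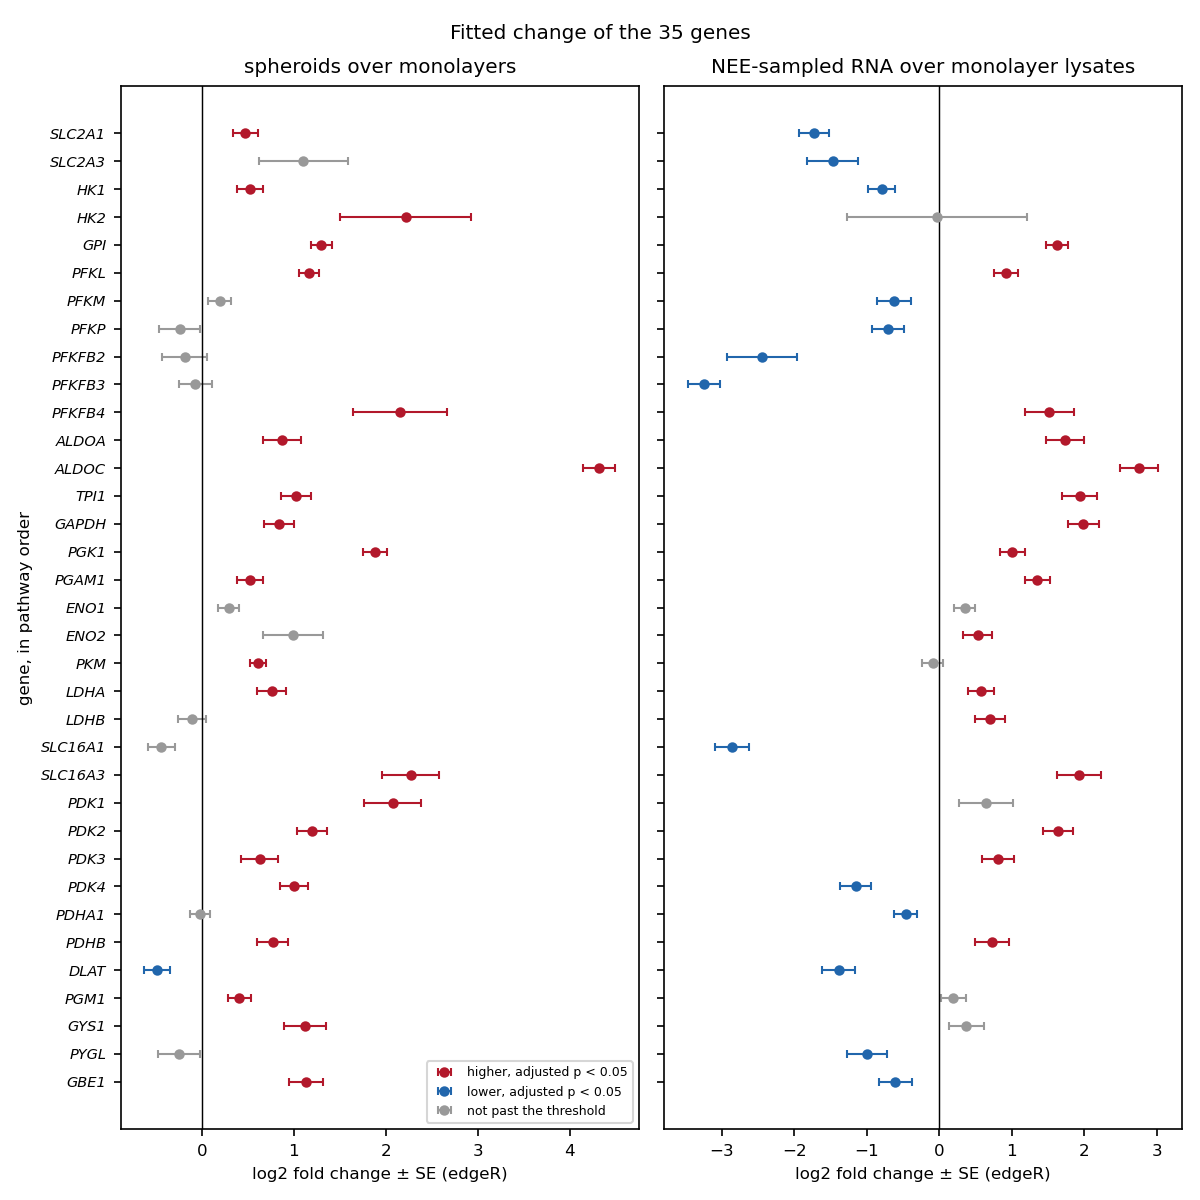
Fitted log2 fold change with its standard error (horizontal axes) for each of the 35 genes in pathway order, spheroids over monolayers on the left and NEE-sampled RNA over monolayer lysates on the right, colored by the edgeR call. In the left panel 23 genes lie to the right of 0 and pass and DLAT passes to the left; in the right panel 16 pass to the right and 13 to the left, and both panels share the monolayer libraries.

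The promoters of the 4 genes with the smallest p in this comparison are shown because hypoxia-inducible factors are known to bind a short core motif found in promoters of glycolytic genes. RefSeq promoters on GRCh38.p14, from 250 bases before to 50 bases after the gene start, were matched for 32 of the 35 genes and searched on both strands for ACGTG and GCGTG, the 2 forms of that core. Capitals mark every match on either strand, so CACGT and CACGC are matches on the other strand and CACGTG holds 2 overlapping matches of ACGTG. ALDOC is read from the minus strand at chr17:28576846-28577145, and PGK1, GPI and PFKL from the plus strand at chrX:78103998-78104297, chr19:34364742-34365041 and chr21:44299803-44300102.
ALDOC: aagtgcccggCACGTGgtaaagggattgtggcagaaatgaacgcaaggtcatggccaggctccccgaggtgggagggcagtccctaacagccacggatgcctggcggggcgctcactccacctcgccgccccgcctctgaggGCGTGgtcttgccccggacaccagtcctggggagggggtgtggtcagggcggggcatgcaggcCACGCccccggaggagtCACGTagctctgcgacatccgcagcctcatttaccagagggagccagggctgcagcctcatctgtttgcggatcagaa
PGK1: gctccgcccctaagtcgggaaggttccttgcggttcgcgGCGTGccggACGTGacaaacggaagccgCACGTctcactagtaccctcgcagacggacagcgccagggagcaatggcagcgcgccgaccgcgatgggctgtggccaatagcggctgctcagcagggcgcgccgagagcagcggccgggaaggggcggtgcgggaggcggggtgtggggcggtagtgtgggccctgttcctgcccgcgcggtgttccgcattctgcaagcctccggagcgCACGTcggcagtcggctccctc
GPI: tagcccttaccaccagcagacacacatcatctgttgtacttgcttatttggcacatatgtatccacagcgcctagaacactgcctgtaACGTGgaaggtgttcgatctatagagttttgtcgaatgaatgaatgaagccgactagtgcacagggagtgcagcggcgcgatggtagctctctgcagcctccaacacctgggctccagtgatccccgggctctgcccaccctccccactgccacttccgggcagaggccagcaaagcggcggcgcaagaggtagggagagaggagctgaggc
PFKL: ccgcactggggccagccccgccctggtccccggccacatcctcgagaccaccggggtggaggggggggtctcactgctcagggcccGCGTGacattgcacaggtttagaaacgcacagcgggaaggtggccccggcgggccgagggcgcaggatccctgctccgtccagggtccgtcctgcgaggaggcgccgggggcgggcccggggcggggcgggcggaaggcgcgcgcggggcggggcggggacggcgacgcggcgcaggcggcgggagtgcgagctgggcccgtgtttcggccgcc

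ALDOC held 3 matches of ACGTG and 2 of GCGTG, PGK1 3 and 1, GPI 1 and 0, and PFKL 0 and 1. Of the 32 matched promoters, 21 held either form (65.6%), against 48.4% of 35116 promoters of the same length. The 23 promoters of members higher in spheroids and the 9 promoters of the other members held one in 15 and 6 cases. A match is a description of these letters and not a binding site. The GENCODE spans of ALDOC, GPI and PGK1 begin before the RefSeq start used here and hold the whole printed window. On GRCh38 the genes themselves lie at ENSG00000109107, chr17:28573115-28577264, minus strand, for ALDOC, ENSG00000102144, chrX:77910739-78129296, plus strand, for PGK1, ENSG00000105220, chr19:34359480-34402413, plus strand, for GPI, and ENSG00000141959, chr21:44300051-44327376, plus strand, for PFKL.

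Ratios between isozymes within a library depend little on scaling between libraries. Of 14 ratios, each the log2 of (CPM + 0.5) of one member over another, 7 differed between spheroids and monolayers after Benjamini-Hochberg adjustment over the 14 (exact permutation test, two-sided, culture labels permuted within each time, smallest possible p 0.00154). The balance of ALDOC to ALDOA ranged over 3.56 to 4.60 (median 4.10) in spheroids, against -0.03 to 1.55 (median 0.63) in monolayers. That of SLC16A3 to SLC16A1 ranged over -1.51 to 0.50 (median -0.18) in spheroids, against -4.06 to -1.69 (median -3.16) in monolayers. These 2 ratios had the largest shifts, 3.43 and 2.62, both with an adjusted p of 0.00432 (exact permutation). The uncertainties in counting ALDOA and SLC16A3, given above, hold for them. The permutation treated libraries of the same replicate number at different times as independent. PFKFB4 to PFKFB3 shifted by 1.91 (exact permutation, adjusted p = 0.0216) and PDHB to PDHA1 by 0.81 (adjusted p = 0.00432). Another 3 ratios were lower in spheroids, namely PFKP to PFKL at -1.44, PFKM to PFKL at -0.98 and LDHB to LDHA at -0.84 (exact permutation, adjusted p = 0.00432, 0.00432 and 0.0108). PDK4 to PDK2 shifted by -0.18 and SLC2A3 to SLC2A1 by 0.29, and neither passed.

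Genes around the pathway were counted in the same fit. Over all genes 10.0% were higher and 9.84% lower in spheroids. The counts of the lists here and in the next paragraph are to be read against these shares. Of 14 tested genes of other glycolysis and sugar entry, 4 were higher and 3 lower in spheroids. BSG, the chaperone of the monocarboxylate transporters, ranged over 1217 to 1419.6 CPM in spheroids, against 382 to 901 CPM in monolayers (log2 fold change 0.87 ± 0.15 SE, edgeR adjusted p = 0.00108). SLC2A12, another glucose transporter, was higher by 1.71 ± 0.29 SE, and ENO3, the muscle enolase, and TIGAR, a phosphatase that lowers fructose 2,6-bisphosphate, were lower, with log2 fold changes of -1.08 ± 0.18 SE and -0.83 ± 0.19 SE (edgeR adjusted p = 0.00125, 0.00107 and 0.00885). Among 10 partners of pyruvate entry 1 was higher and none lower: PC, pyruvate carboxylase, at 0.79 ± 0.15 SE (edgeR adjusted p = 0.00282). Gluconeogenesis and glycogen partners had 3 of 17 higher, UGP2, G6PC3 and PHKB, and none lower. Of 17 genes of the tricarboxylic acid cycle, SDHC was higher and FH and IDH3A lower. Among 16 known regulators of glycolytic genes PPARGC1A alone passed, as higher, at 12.2 to 46.5 CPM in spheroids, against 0.319 to 11.5 CPM in monolayers.

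Known targets of the hypoxia-inducible factors outside glycolysis were higher in spheroids in 11 of 20 cases and lower in none, with a median log2 fold change of 1.29. CA9, a carbonic anhydrase of the cell surface, ranged over 100 to 311 CPM in spheroids, against 0.796 to 10.0 CPM in monolayers (6.91 ± 0.39 SE, edgeR adjusted p = 9.98e-07). BNIP3 and BNIP3L, receptors for the removal of mitochondria, were higher by 1.70 ± 0.19 SE and 1.75 ± 0.18 SE, and CA12, a related carbonic anhydrase, by 2.58 ± 0.35 SE on the log2 scale (edgeR adjusted p = 6.54e-05, 4.11e-05 and 0.000458). Of the 9 A549 and epithelial markers 5 were also higher in spheroids, among them CDH1 at 94.0 to 231 CPM in spheroids, against 15.2 to 97.8 CPM in monolayers. The part of these markers in the pathway's difference was not tested.

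Spheroid replicates 1 and 2 differed from each other in the pathway, a comparison chosen after their values were seen. It sets 1 replicate number against 1 other, with the 4 times as repeats. Its p-values therefore measure spread over times and not spread between batches. At all 4 times, replicate 1 lay above replicate 2 in 22 of the 35 genes in spheroids (9.91% of all genes did so) and in 6 in monolayers (9.22% of all genes). In the fit, 6 genes were higher in spheroid replicate 1 than in replicate 2 (1.17% of all genes tested) and none was lower (0.438%), where 1.61% of all genes passed in either direction. Of the 35 differences 29 were positive, against 52.2% over all genes. The median log2 difference was 0.41 for the 35 genes and 0.02 over all genes. SLC2A3 had 257, 206, 163 and 121 CPM in replicate 1 before, right after, 2 h and 24 h after NEE, against 34.6, 37.2, 66.8 and 30.2 CPM in replicate 2 (log2 fold change 2.18 ± 0.28 SE, edgeR adjusted p = 0.00202). ENO2 had 282, 258, 234 and 227 CPM in replicate 1, against 120.3, 103, 83.7 and 60.7 CPM in replicate 2 at the same times (log2 fold change 1.50 ± 0.19 SE, edgeR adjusted p = 0.0016). For both genes no value of replicate 2 reached any value of replicate 1, and both calls were kept in every alternative tried, with the uncertainty in counting ENO2 given above. PFKFB4 had 125, 117, 50.5 and 69.3 CPM in replicate 1, against 46.6, 57.1, 6.20 and 8.83 CPM in replicate 2 (log2 fold change 2.11 ± 0.37 SE, edgeR adjusted p = 0.0139). PFKFB3, of the same family, had 1090.2, 991, 545 and 947 CPM in replicate 1, against 573, 515, 459.8 and 481 CPM in replicate 2 (log2 fold change 0.79 ± 0.14 SE, edgeR adjusted p = 0.0148). The difference in PFKFB3 was smallest at 2 h. GYS1 and PFKP were higher by 1.00 ± 0.17 SE and 0.90 ± 0.14 SE on the log2 scale (edgeR adjusted p = 0.00949 and 0.00809).

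The 2 lowest spheroid values of PFKFB4, both from replicate 2, stood within or below the monolayer range. Of the 20 targets of the hypoxia-inducible factors outside glycolysis, 6 were higher in spheroid replicate 1 than in replicate 2 and none lower, with a median log2 difference of 0.75. Among them were P4HA1 and P4HA2, subunits of collagen prolyl hydroxylase, NDRG1 and ADM, at 0.83 ± 0.14 SE, 0.81 ± 0.13 SE, 1.93 ± 0.33 SE and 2.12 ± 0.37 SE (edgeR adjusted p = 0.0122, 0.00721, 0.0108 and 0.0164). The 9 A549 and epithelial markers summed to 33182 to 34746 CPM in the 4 libraries of replicate 1, against 44082 to 54955 CPM in those of replicate 2, and their part in the difference was not tested.

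**Figure D4:**
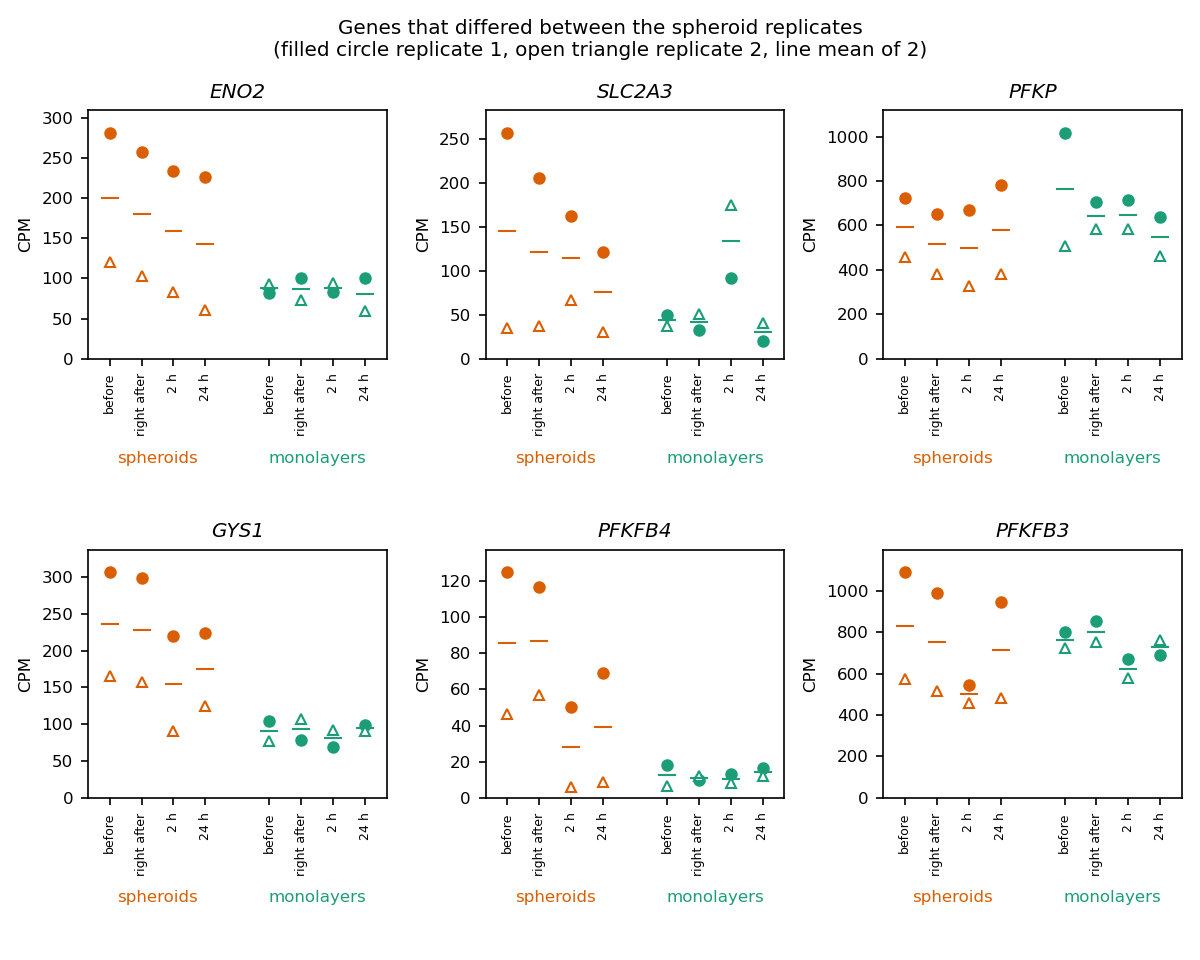
CPM (vertical axes, from 0) of the 6 genes that passed between spheroid replicates, by time relative to NEE, with filled circles for replicate 1, open triangles for replicate 2 and lines for the mean of 2. In spheroids every filled circle lies above the triangle of the same time, with 257 against 34.6 CPM for SLC2A3 before NEE, while in monolayers the order of the 2 varies for all but PFKP.

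The next comparison sets each time after NEE against the libraries before NEE of the same culture. The series holds no culture without NEE at the later times, so NEE, handling and time in culture cannot be told apart. None of the 35 genes passed right after, 2 h after or 24 h after NEE in either culture, nor in the interaction of culture and time (edgeR adjusted p under 0.05; 0 of 35 with DESeq2 in each). The background was as low: 0.00561% of all genes tested passed in monolayers at 2 h, 0.0112% in spheroids at 2 h and 0% in the other 4 comparisons and the 3 interactions. At an unadjusted edgeR p under 0.05, 7 of the 35 genes differed in monolayers at 24 h, 1 and 2 in the interactions at 2 h and 24 h, and 0 in the other 6. The share of all genes below that p was 2.25%, 3.39% and 4.42% in monolayers right after, at 2 h and at 24 h, 2.01%, 3.39% and 2.50% in spheroids, and 2.90%, 3.11% and 3.52% in the interaction. The 7 genes at 24 h became 4 when the library that stood apart was left out. In monolayers 23, 21 and 26 of the 35 changes were positive right after, at 2 h and at 24 h, with medians of 0.14, 0.20 and 0.25, against 46.8%, 46.6% and 48.0% positive over all genes. With each library left out in turn the medians in monolayers stayed positive, at 0.04 to 0.25, 0.09 to 0.21 and 0.10 to 0.29. In spheroids 8, 7 and 7 were positive, with medians of -0.07, -0.21 and -0.15, against 50.2%, 49.3% and 49.8% over all genes. In spheroids the direction turned when either of 2 libraries was left out. Without replicate 1 of the spheroids before NEE, 25, 18 and 23 were positive, with medians of 0.17, 0.04 and 0.11. Without replicate 2 of the spheroids right after NEE, 25 were positive right after NEE, with a median of 0.09. Each of these fits leaves 1 replicate on 1 side, and spheroid replicate 1 was above replicate 2 in most of the 35 genes. With the replicate number as a block, 9, 6 and 7 were positive, with medians of -0.06, -0.20 and -0.16. In the interaction, the spheroid change minus the monolayer change, 6, 5 and 4 were positive, with medians of -0.17, -0.38 and -0.40, against 53.1%, 52.6% and 51.3% over all genes. Without replicate 1 of the spheroids before NEE these were 17, 13 and 13, with medians of -0.04, -0.20 and -0.24. With the replicate number as a block they were 5, 4 and 4, with medians of -0.20, -0.38 and -0.44. These comparisons share the libraries taken before NEE within each culture, so their counts are not independent of each other.

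The members nearest to the threshold in monolayers were GPI, ALDOC and SLC16A1 at 24 h. GPI had 1308 and 1212 CPM in the monolayers 24 h after NEE, against 738 and 757 CPM before NEE (log2 fold change 0.75 ± 0.23 SE, edgeR unadjusted p = 0.00638). ALDOC had 17.5 and 20.2 CPM at 24 h, against 11.4 and 7.63 CPM before NEE (log2 fold change 0.97 ± 0.31 SE, edgeR unadjusted p = 0.0081). In both genes the 2 groups did not overlap. SLC16A1 had 130.4 and 159 CPM at 24 h, against 328 and 180.2 CPM before NEE (log2 fold change -0.82 ± 0.30 SE, edgeR unadjusted p = 0.0167), and its highest value was that of the library that stood apart. Without that library the changes at 24 h were 0.74 ± 0.28 SE, edgeR unadjusted p = 0.0184, for GPI, 1.31 ± 0.37 SE, edgeR unadjusted p = 0.0035, for ALDOC, and -0.31 ± 0.30 SE, edgeR unadjusted p = 0.314, for SLC16A1. With that library as the only one before NEE, GAPDH and TPI1 passed at 24 h (log2 fold change 1.52 ± 0.26 SE, edgeR adjusted p = 0.0223, for GAPDH, and 1.62 ± 0.24 SE, edgeR adjusted p = 0.0101, for TPI1). With both libraries they had values of 5265 and 4228 CPM of GAPDH at 24 h, against 1645 and 4035 CPM before NEE, and 3063 and 3518 CPM of TPI1 at 24 h, against 1062 and 2889 CPM before NEE. Right after NEE and at 2 h the smallest p in monolayers belonged to PGAM1 and GPI. PGAM1 had 856 and 712 CPM right after NEE, against 414 and 663 CPM before NEE (log2 fold change 0.55 ± 0.28 SE, edgeR unadjusted p = 0.0694). The 414 CPM was that of the library that stood apart, and without it the change of PGAM1 was 0.25 ± 0.29 SE, edgeR unadjusted p = 0.412. GPI at 2 h had 1124 and 886 CPM in monolayers, against the same values before NEE (log2 fold change 0.43 ± 0.23 SE, edgeR unadjusted p = 0.0818), and 0.43 ± 0.27 SE, edgeR unadjusted p = 0.142, without that library. SLC2A3 at 2 h had 91.8 and 175 CPM in monolayers, against 49.8 and 37.4 CPM before NEE, and passed only when no filter on low counts was applied (1.64 ± 0.34 SE, edgeR adjusted p = 0.00137).

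The values of PGAM1 right after and of GPI at 2 h did not overlap with those before NEE.

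In spheroids the genes with the smallest p were DLAT right after NEE, PFKFB3 at 2 h and SLC2A1 at 24 h. DLAT had 85.2 and 76.9 CPM right after NEE, against 117 and 104 CPM before NEE (log2 fold change -0.43 ± 0.28 SE, edgeR unadjusted p = 0.152). PFKFB3 had 545 and 459.8 CPM at 2 h, against 1090.2 and 573 CPM before NEE (log2 fold change -0.71 ± 0.36 SE, edgeR unadjusted p = 0.0711). The 2 times did not overlap in either gene. SLC2A1 had 564 and 396 CPM at 24 h, against 781 and 546 CPM before NEE (log2 fold change -0.47 ± 0.27 SE, edgeR unadjusted p = 0.107). In SLC2A1 the 2 times overlapped. PFKFB4 at 2 h had 50.5 and 6.20 CPM, against 125 and 46.6 CPM before NEE, and passed only without the filter on low counts (-1.61 ± 0.39 SE, edgeR adjusted p = 0.0246). The interaction with the smallest p was that of ALDOC at 24 h, a spheroid change minus monolayer change of -1.32 ± 0.44 SE (edgeR unadjusted p = 0.00939), with 229 and 204 CPM in spheroids at 24 h, against 340.3 and 209.6 CPM before NEE.

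RNA sampled by NEE was compared with lysates of the monolayers to see which transcripts of the pathway the sampled RNA represents. Of the 35 genes, 16 were higher in NEE-sampled RNA than in monolayer lysates (22.5% of 17067 genes tested were higher) and 13 were lower (26.0%), so the pathway was split. The median log2 fold change was 0.38 for the 35 genes and -0.20 over all genes tested, and 20 of the 35 were positive, against 45.7% over all genes. In 13 genes the 3 NEE-sampled libraries lay above all 8 monolayer libraries (20.6% of all genes did) and in 9 below them (23.9%), and without the library that stood apart these numbers were 14 and 10. With library totals as the scaling, the median over all genes was -0.53 in place of -0.20, 2933 genes were higher and 5520 lower in place of 3847 and 4440, and 11 of the 35 were higher and 14 lower. No call among the 35 genes changed sign with the scaling. The NEE-sampled RNA was purified with another kit than the lysates, so the sampling and the purification cannot be told apart. This comparison shares the monolayer libraries with that of the spheroids, and the 2 sets of calls are not independent.

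From GPI to PGAM1, each step had at least 1 enzyme that was higher in NEE-sampled RNA, whereas PKM and ENO1 did not pass. GAPDH had 14127, 14545 and 15724 CPM in the 3 NEE-sampled libraries, against 1645 to 5265 CPM (median 3974) in monolayer lysates (log2 fold change 1.99 ± 0.22 SE, edgeR adjusted p = 1.93e-05). TPI1 had 7670.1, 9204 and 11266 CPM in NEE-sampled RNA, against 1062 to 3518 CPM (median 2688) in monolayers (log2 fold change 1.94 ± 0.24 SE, edgeR adjusted p = 5.11e-05). Both were about as far apart without the library that stood apart, whose values were the lowest of the monolayers: 1.84 ± 0.13 SE, edgeR adjusted p = 4.08e-07, for GAPDH, and 1.78 ± 0.15 SE, edgeR adjusted p = 1.32e-06, for TPI1. GPI had 2608, 2875 and 3556 CPM in NEE-sampled RNA, against 738 to 1308 CPM (median 1005) in monolayers (log2 fold change 1.62 ± 0.15 SE, edgeR adjusted p = 6.88e-06). PGAM1 had 1526, 1982 and 1974 CPM in NEE-sampled RNA, against 414 to 892 CPM (median 751) in monolayers (log2 fold change 1.35 ± 0.17 SE, edgeR adjusted p = 5.37e-05). PGK1 had 2331, 3093 and 4449.6 CPM in NEE-sampled RNA, against 1372 to 1950.1 CPM (median 1661) in monolayers (log2 fold change 1.01 ± 0.17 SE, edgeR adjusted p = 0.000454). None of these genes overlapped between the groups. ALDOC had 56.8, 59.8 and 131 CPM in NEE-sampled RNA, against 7.63 to 20.2 CPM (median 12.1) in monolayers (log2 fold change 2.76 ± 0.27 SE, edgeR adjusted p = 8.8e-06), the largest positive fold change among the 35 genes. ALDOA had 20.8, 28.4 and 29.6 CPM in NEE-sampled RNA, against 6.32 to 10.4 CPM (median 7.79) in monolayers, and PFKL had 207, 235 and 305 CPM, against 109 to 161 CPM (median 137) in monolayers. Both lay wholly above the monolayers, with fitted log2 differences of 1.74 ± 0.26 SE and 0.92 ± 0.16 SE (edgeR adjusted p = 0.00017 and 0.00062). PKM had 5288, 5916 and 7553 CPM and ENO1 4968, 5699 and 7117 CPM in NEE-sampled RNA, and neither passed, at -0.09 ± 0.14 SE and 0.35 ± 0.15 SE (edgeR adjusted p = 0.638 and 0.0712).

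The transporters of glucose, and one of the 2 lactate transporters, were lower in NEE-sampled RNA. SLC2A1 had 143, 119 and 100.1 CPM in NEE-sampled RNA, against 295 to 554 CPM (median 406) in monolayers (log2 fold change -1.72 ± 0.21 SE, edgeR adjusted p = 4.05e-05). SLC2A3 had 14.5, 12.9 and 28.6 CPM in NEE-sampled RNA, against 20.1 to 175 CPM (median 45.0) in monolayers (log2 fold change -1.47 ± 0.35 SE, edgeR adjusted p = 0.00441). SLC16A1 had 29.4, 23.9 and 24.4 CPM in NEE-sampled RNA, against 130.4 to 328 CPM (median 183) in monolayers (log2 fold change -2.86 ± 0.23 SE, edgeR adjusted p = 3.08e-06). Of these 3 genes only SLC2A3 overlapped with the monolayers. SLC16A3 went the other way, with 81.8, 61.3 and 126 CPM in NEE-sampled RNA, against 13.5 to 40.1 CPM (median 20.4) in monolayers (log2 fold change 1.93 ± 0.30 SE, edgeR adjusted p = 0.000249). Per length SLC16A3 was 60.3% to 75.3% (median 62.1%) of the 2 lactate transporters in NEE-sampled RNA and 3.36% to 15.4% (median 6.10%) in monolayers.

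**Figure D5:**
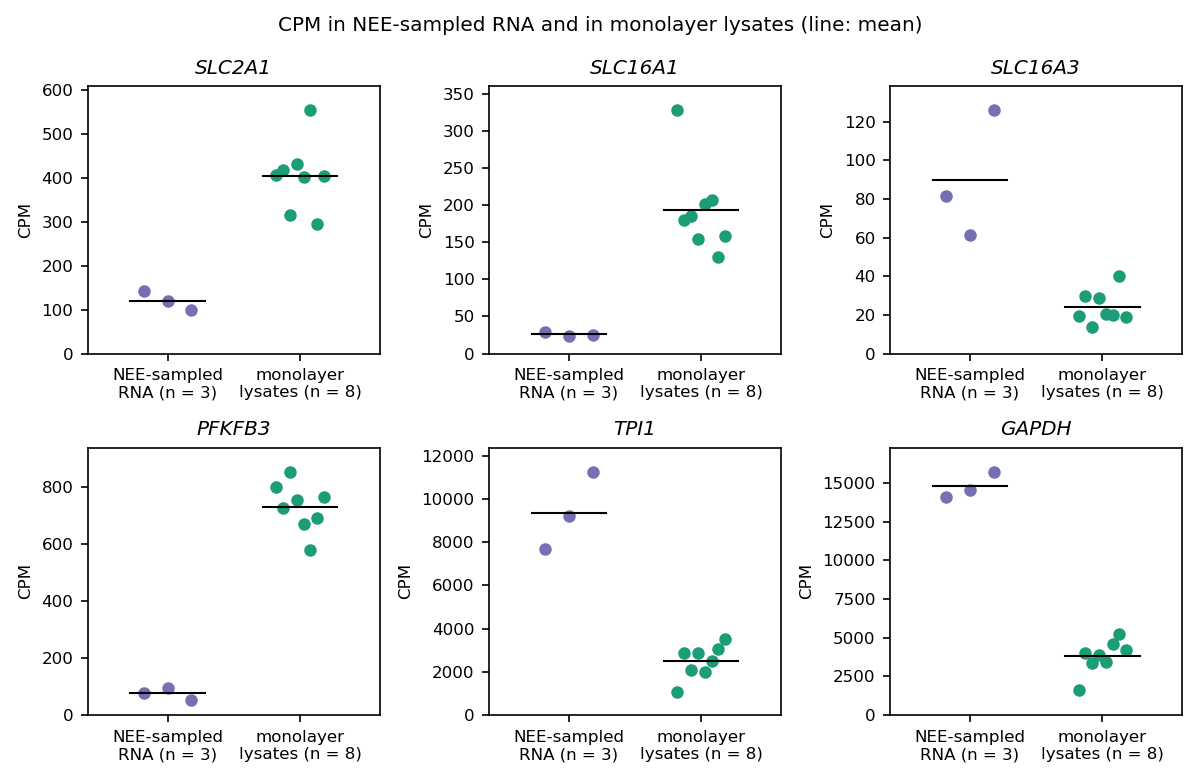
CPM (vertical axes, from 0) of SLC2A1, SLC16A1, SLC16A3, PFKFB3, TPI1 and GAPDH in the 3 NEE-sampled libraries (left of each panel) and the 8 monolayer lysate libraries (right), with a point per library and a line at the mean. SLC2A1, SLC16A1 and PFKFB3 lie wholly below the monolayers and SLC16A3, TPI1 and GAPDH wholly above.

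The PFKFB regulators of phosphofructokinase lay on both sides of the monolayers. PFKFB3 had 78.7, 96.5 and 52.5 CPM in NEE-sampled RNA, against 577 to 853 CPM (median 739) in monolayers (log2 fold change -3.25 ± 0.22 SE, edgeR adjusted p = 1.21e-06), a 9.51-fold lower level. PFKFB2 had 6.52, 4.01 and 2.05 CPM in NEE-sampled RNA, against 9.10 to 32.7 CPM (median 24.9) in monolayers (log2 fold change -2.45 ± 0.48 SE, edgeR adjusted p = 0.00129). PFKFB4 had 18.2, 47.3 and 38.2 CPM in NEE-sampled RNA, against 6.59 to 18.2 CPM (median 12.3) in monolayers (log2 fold change 1.52 ± 0.34 SE, edgeR adjusted p = 0.0029). The lowest PFKFB4 value in NEE-sampled RNA lay just below the highest monolayer value. That monolayer value came from the library that stood apart, and the other 7 reached at most 16.7 CPM. Per length PFKFB4 was 18.1% to 41.5% (median 32.4%) of the 3 in NEE-sampled RNA and 0.895% to 2.32% (median 1.58%) in monolayers. Of phosphofructokinase itself, PFKP had 320.1, 421 and 442 CPM in NEE-sampled RNA and was lower than in monolayers without overlap (log2 fold change -0.70 ± 0.22 SE, edgeR adjusted p = 0.0193). PFKM had 37.9, 61.5 and 86.6 CPM in NEE-sampled RNA and was lower with overlap (log2 fold change -0.62 ± 0.23 SE, edgeR adjusted p = 0.0439). HK1 had 111, 106 and 119.6 CPM in NEE-sampled RNA and lay wholly below the monolayers (log2 fold change -0.79 ± 0.18 SE, edgeR adjusted p = 0.0037).

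In the pyruvate branch the PDK kinases were split too. PDK2 had 60.2, 78.8 and 54.1 CPM in NEE-sampled RNA, against 16.2 to 28.2 CPM (median 20.5) in monolayers (log2 fold change 1.64 ± 0.21 SE, edgeR adjusted p = 5.52e-05). PDK4 had 75.9, 110.3 and 76.0 CPM in NEE-sampled RNA, against 139 to 256 CPM (median 189.6) in monolayers (log2 fold change -1.15 ± 0.22 SE, edgeR adjusted p = 0.000905). PDK2 and PDK4 were thus on opposite sides of the monolayers, with no overlap. PDK3 had 71.5, 82.6 and 75.6 CPM in NEE-sampled RNA and lay wholly above the monolayers (log2 fold change 0.81 ± 0.22 SE, edgeR adjusted p = 0.00955). PDK1 had 11.2, 15.1 and 20.7 CPM and did not pass (log2 fold change 0.65 ± 0.37 SE, edgeR adjusted p = 0.168). Of the complex, DLAT had 35.4, 55.0 and 51.2 CPM in NEE-sampled RNA, against 101 to 153 CPM (median 122) in monolayers (log2 fold change -1.39 ± 0.22 SE, edgeR adjusted p = 0.000293). PDHA1 had 217, 269 and 247 CPM in NEE-sampled RNA and was lower with overlap, and PDHB had 175, 218 and 252 CPM and was higher without overlap (log2 fold changes -0.46 ± 0.16 SE and 0.73 ± 0.23 SE, edgeR adjusted p = 0.033 and 0.0228). The 3 subunits of the complex thus did not share a direction.

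The remaining enzymes lay on both sides of the monolayers or did not pass. LDHA had 6415, 7896 and 9298 CPM in NEE-sampled RNA and LDHB 98.5, 90.5 and 113 CPM, and both were higher than in monolayers, LDHB without overlap (0.57 ± 0.18 SE and 0.70 ± 0.21 SE, edgeR adjusted p = 0.0195 and 0.0155). ENO2 had 134, 101 and 136 CPM in NEE-sampled RNA and was higher, with the same uncertainty (log2 fold change 0.53 ± 0.20 SE, edgeR adjusted p = 0.0455). PYGL had 52.3, 54.9 and 58.7 CPM in NEE-sampled RNA, against 70.2 to 193 CPM (median 104) in monolayers, and was lower without overlap (edgeR adjusted p = 0.0109). GBE1 had 69.3, 71.2 and 96.5 CPM in NEE-sampled RNA and was lower with overlap (log2 fold change -0.60 ± 0.23 SE, edgeR adjusted p = 0.0466). GYS1, PGM1 and HK2 did not pass, with edgeR adjusted p-values of 0.217, 0.36 and 1 (HK2 0.515, 0 and 4.09 CPM in NEE-sampled RNA). Without the library that stood apart, ENO2 and GBE1 no longer passed (0.49 ± 0.20 SE, edgeR adjusted p = 0.0657, for ENO2, and -0.49 ± 0.19 SE, edgeR adjusted p = 0.053, for GBE1).

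Of the 14 isozyme ratios 9 differed between NEE-sampled RNA and monolayer lysates (exact permutation test, two-sided, adjusted over the 14, smallest possible p 0.0121). SLC16A3 to SLC16A1 ranged over 1.34 to 2.34 (median 1.46) in NEE-sampled RNA, against -4.06 to -1.69 (median -3.16) in monolayers. PFKFB4 to PFKFB3 ranged over -2.08 to -0.46 (median -1.02) in NEE-sampled RNA, against -6.68 to -5.33 (median -5.89) in monolayers. Their shifts of 4.73 and 4.72 on the log2 scale were the largest of the 14 (exact permutation, adjusted p = 0.0242 for each). PDHB to PDHA1 and PFKFB2 to PFKFB3 were also higher, and PFKP to PFKL, PFKM to PFKL, PDK4 to PDK2, PDK1 to PDK2 and PDK3 to PDK2 lower. PDK4 to PDK2 was the largest of the lower ones, at -2.76. With any one of the 3 NEE-sampled libraries left out 0 of the 14 passed.

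The exon length of each gene was set against its difference in NEE-sampled RNA. Over the 35 genes Spearman's rho between union exon length and the log2 fold change of NEE-sampled RNA over monolayer lysates was -0.25, and over 13449 protein-coding genes it was -0.33, where all points share the same 11 libraries. Of the 10 members with the shortest exon length, 2568 to 4493 bases, 7 were higher and 1 lower in NEE-sampled RNA, and of the 10 with the longest, 6159 to 14883 bases, 4 were higher and 4 lower. The median log2 fold changes were 1.02 in the shortest and 0.24 in the longest. Members of middle length are not in this split, and over all 35 genes 16 were higher and 13 lower. The part of length in the result was not tested.

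Around the pathway, the partners of pyruvate entry were split in the same comparison, with 2 of 10 higher and 6 lower. Over all genes 22.5% were higher and 26.0% lower, and the counts of the lists in this comparison are to be read against these shares. MPC1 and MPC2, the mitochondrial pyruvate carrier, were higher by 2.41 ± 0.38 SE and 1.65 ± 0.26 SE, and PDP1, a phosphatase that switches the dehydrogenase complex on, and DLD, its dihydrolipoamide dehydrogenase, were lower, with log2 fold changes of -4.03 ± 0.35 SE and -1.48 ± 0.16 SE (edgeR adjusted p = 0.000261, 0.000236, 4.47e-06 and 1.78e-05). Of other glycolysis and sugar entry 3 of 14 were higher and 6 lower, with HKDC1, a hexokinase, at 8.17 to 21.3 CPM in NEE-sampled RNA, against 111 to 182 CPM in monolayers (-3.36 ± 0.31 SE, edgeR adjusted p = 6.64e-06), and ADPGK lower and SLC2A8 and BPGM higher. Of 16 gluconeogenesis and glycogen partners 1 was higher and 7 lower, and of 17 genes of the tricarboxylic acid cycle 8 were higher and 6 lower. Of the 20 targets of the hypoxia-inducible factors outside glycolysis, 7 were higher and 3 lower, with CA9 at 96.5 to 315 CPM in NEE-sampled RNA, against 0.796 to 10.0 CPM in monolayers (6.52 ± 0.42 SE, edgeR adjusted p = 9.62e-07). Of 16 regulators, 5 were higher and 5 lower. HIF1A, a subunit of the hypoxia-inducible factor, had 166 to 198 CPM in NEE-sampled RNA, against 773 to 1060.5 CPM in monolayers, and MYC had 19.3 to 29.5 CPM in NEE-sampled RNA, against 104 to 248 CPM in monolayers (log2 fold change -2.31 ± 0.16 SE, for HIF1A, and -2.70 ± 0.26 SE, for MYC, edgeR adjusted p = 1.15e-06 and 8.83e-06).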

How the data were processed

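The authors deposited unnormalized gene counts of paired-end Smart-Seq2 libraries. The submitters' processing notes name FastQC, Trimmomatic, HISAT2, featureCounts and GRCh38, and versions, annotation release, strand setting and the treatment of multi-mapping reads were not given in the sources used here. Gene positions, exon lengths and biotypes were taken from GENCODE release 29, which placed 58207 of the 62700 genes, and promoters from RefSeq. The count tables were filtered with filterByExpr, scaled by TMM and fitted with edgeR 4.0.16 (quasi-likelihood, robust, 1 mean per group, R 4.3.3), for the 16 lysate libraries (17822 genes, 8 residual degrees of freedom) and for NEE-sampled RNA with the monolayers (17067 genes, 6 residual degrees of freedom). The p-values were adjusted by Benjamini-Hochberg over all genes tested, with 0.05 as the threshold, and the standard error is the absolute log2 fold change over the square root of F. DESeq2 1.42.0 was an alternative, beside other scalings, no filter on low counts, other pseudocounts, replicate blocks and each library left out. The pipeline was tested on simulated data before use.

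The 35 genes and all lists were chosen with earlier results of these data known. Genes named outside the 35 were those of each list with the smallest p among its calls, and 1 list is not reported here. Lysate libraries with the same replicate number share a batch tag in the labels, which was taken to pair them; around each group's mean, libraries with 1 number correlated at -0.325 to 0.562 over 28 pairs (median 0.211). The NEE-sampled libraries share with them only a number. No 2 libraries of a group agreed within sampling noise (mean chi-square per gene 38.3 to 229). Levels of different genes were compared only per kilobase of union exon. Intervals and limits from 3 counts cover counting error only.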

Additional observations from a re-analysis of the deposited data

How the results depend on the processing

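Spheroids against monolayers: 15 of the 24 calls among the 35 genes held under every alternative tried, and ALDOA, DLAT, HK1, HK2, PDK3, PFKFB4, PGAM1, PGM1 and SLC2A1 fell short of the threshold under at least 1. With the replicate number as a block 25 genes were higher and 2 lower, and the calls it added were those of ENO1, ENO2 and SLC16A1; leaving out the times before NEE gave 2192 of all genes tested. NEE-sampled RNA against monolayer lysates: 17 of the 29 calls held under every alternative tried. Summing the technical replicates gave 5030 genes and 17 members, taking the monolayers right after NEE alone as the other side gave 18 members, and a replicate block gave 12 members higher and 12 lower, but here the samples share only a number. No member changed sign while called.

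The numbers of genes called after NEE and between spheroid replicates changed with the filter and the tool. Without the filter on low counts, monolayers gave 52, 99 and 132 genes right after, 2 h and 24 h after NEE, spheroids 1, 56 and 16, and the interaction 25, 35 and 69, with 1 member each in monolayers at 2 h (SLC2A3), spheroids at 2 h (PFKFB4) and the interaction at 2 h (SLC2A3). DESeq2 gave 7, 53 and 44 genes in monolayers, 1 and 39 in spheroids right after and at 2 h, and 1, 3 and 11 in the interaction, with 0 members in each. At 2 h after NEE, monolayers gave 0 genes with 19 libraries in 1 fit, with the 2 groups alone and with a block within culture, and spheroids 0 with the 2 groups alone and 5 with the block within culture. Between spheroid replicates DESeq2 gave 777 genes and 13 members, and no filter 683 and 10. The causes were not tested.

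Leaving out 1 library at a time gave these ranges: spheroids against monolayers 2387 to 4009 genes and 19 to 25 members; NEE-sampled RNA 7134 to 8617 genes and 24 to 30 members; spheroid replicates 119 to 193 genes and 3 to 5 members; monolayers 0 to 38, 0 to 48 and 0 to 102 genes right after, 2 h and 24 h after NEE, with 0 to 2 members at 24 h; spheroids 0, 1 to 8 and 0 to 1 genes; interaction 0 to 12, 0 to 2 and 0 to 6 genes with 0 members. The monolayer maxima all came without replicate 2 before NEE, which leaves the library that stood apart as the baseline; a lone library is assumed to vary like the other groups. Of the isozyme ratios 7 to 10 passed for spheroids and 0 to 10 for NEE-sampled RNA, where 2 libraries against 8 cannot pass after adjustment. What depth limits was not tested.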
